A study of Mus musculus with 4 samples.

Results

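Among cells sorted from the mouse thymus for a myeloid reporter, 70 cells carried epithelial transcripts, out of 23549 filtered cells in 3 libraries and 29042 in all 4. They were selected on measured values. A cell had 1000 to 7000 genes, no more than 10% mitochondrial transcripts, at least 2 unique molecular identifiers (UMIs, each standing for 1 captured transcript) of Krt8 and of Epcam, fewer than 30 UMIs of C1qa, C1qb and C1qc together, and none of Xcr1. Krt8 is a keratin of simple epithelia and Epcam an epithelial surface adhesion molecule. The C1q genes mark macrophages and Xcr1 a class of dendritic cells. Of the 103 cells that met the Krt8 and Epcam minimums, 70 also met the C1q and Xcr1 limits. Because the choice rests on these transcripts, every comparison with the other cells below is a description and carries no p-value.

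The study sorted live single cells by reporter fluorescence from digested thymus and measured their RNA by droplet sequencing of 3′ transcript ends. MAFIA mice carried Csf1r-EGFP-NGFR/FKBP1A/TNFRSF6, a transgene whose green fluorescent reporter is driven by the Csf1r promoter, which is active in macrophages and monocytes. They were 5 weeks old, and GFP+ cells were collected. Cd11cYFP mice carried Itgax-Venus, a yellow fluorescent reporter driven by the promoter of Itgax, the gene of the dendritic cell integrin CD11c. They were 9 weeks old, and YFP+ cells were collected. All were C57BL/6, and the labels call the sorted population myeloid cells. Each reporter is represented by 2 libraries. The study's methods describe 1 female MAFIA and 2 male Cd11cYFP mice, so reporter, age and sex cannot be told apart. Nothing in the sources used here says that the MAFIA libraries came from separate animals.

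Thymic epithelial cells build the stroma in which T cells mature. Cortical epithelial cells depend on the transcription factor FOXN1 and present peptides made by a proteasome of their own, which carries the subunit PSMB11. Medullary epithelial cells attract maturing thymocytes with the chemokine CCL21 and, through AIRE and FEZF2, transcribe genes otherwise restricted to single tissues, so that T cells reactive to them can be removed. Some medullary cells further resemble cells of gut, skin, airway or other tissues.

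The 70 cells comprised 20 of 6219 filtered cells in MAFIA replicate 2 (0.322%, exact 95% binomial interval 0.197 to 0.496), 22 of 7646 in Cd11cYFP replicate 1 (0.288%, 0.180 to 0.435) and 28 of 9684 in Cd11cYFP replicate 2 (0.289%, 0.192 to 0.418). The mean share was 0.299% ± 0.0192 (SD, n = 3), and the intervals of the 3 libraries overlap. All intervals given here cover counting error only. MAFIA replicate 1 held 0 such cells among 5493, with an upper bound of 0.0671% by the same interval (a limit of 3 counts would be 0.0546%). That library was shallower, with a median of 3979 UMIs per cell against 15734 to 17492 in the others, and 38 of the 70 cells still passed the Krt8 and Epcam minimums after random reduction to 3979 UMIs. Library totals ran from 26876378 UMIs in MAFIA replicate 1 to 185882793 in Cd11cYFP replicate 2. Every pair of libraries shared between 10 and 25 cell barcodes, and none belonged to the 70 cells.

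The epithelial-like cells were not shallow barcodes. Their median depth was 23839 UMIs in MAFIA replicate 2, 18364.5 in Cd11cYFP replicate 1 and 20488.5 in Cd11cYFP replicate 2, compared with 17492, 15734 and 17170 over all filtered cells of those libraries. Single cells ranged from 6731 to 38737 UMIs. Median mitochondrial shares were 2.42%, 2.59% and 3.25%, against 2.25%, 1.48% and 1.60%, so the cells lay higher in all 3 libraries. When every cell was reduced to 5000 UMIs, the epithelial-like cells had a median of 2065.5 genes (mean of 3 library medians, SD 38.2), between 2024.5 and 2100. The other cells had 1847 ± 54.5 genes, fibroblast-marker cells 2165 ± 31.2 and macrophage-marker cells 2010 ± 20.5. The lowest library of the epithelial-like cells thus lay above the highest of the other cells, at 1903, and their highest lay below the lowest of the fibroblast-marker cells, at 2130, of which MAFIA replicate 2 held only 2. The range of the epithelial-like cells overlapped those of macrophage-marker cells (1998 to 2034) and thymocyte-marker cells (1937.5 to 2084), so it did not set them apart from these. Simulated doublets, made by adding random pairs of cells, gave a score that marked 322, 473 and 758 barcodes in the 3 libraries, and 0 of the 70 were among them. The median score of the 70 cells was nevertheless above that of the other cells in 2 libraries, at 0.35 against 0.20 in MAFIA replicate 2 and 0.49 against 0.22 in Cd11cYFP replicate 1, and was 0.20 against 0.22 in Cd11cYFP replicate 2. Random pairs seldom hold 1 of the 70 cells, so the score cannot tell whether an epithelial-like cell shares its droplet with another cell.

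**Figure D1:**
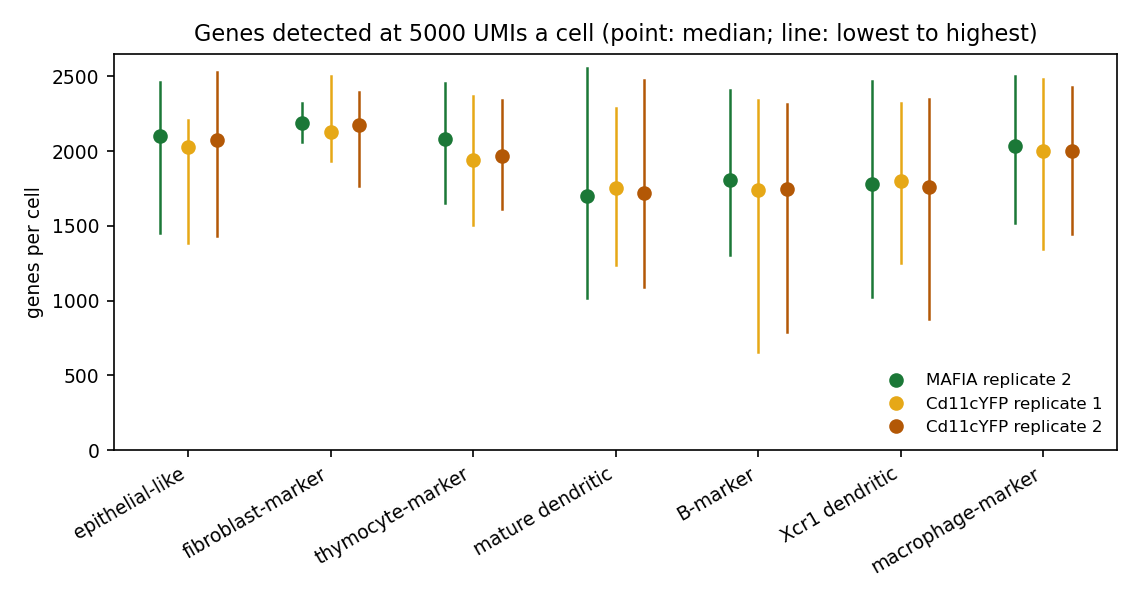
Genes detected per cell (vertical axis) after each cell was reduced to 5000 UMIs, for the epithelial-like cells and 6 other marker-defined groups (horizontal axis); each colour is a library, points are medians and lines span the lowest to the highest cell. Epithelial-like medians lie between 2024.5 and 2100 genes, below fibroblast-marker cells and above the dendritic groups.

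The members did not all hold the same transcripts, and they are described here in 7 groups whose limits were set after their values were seen. A cell was placed in the first of these that it met. There were 8 cells with at least 1000 Pth UMIs (Pth cells), 10 with at least 5 Ptprc UMIs (Ptprc cells), 3 with at least 5 Trpm5 UMIs (Trpm5 cells), 3 with at least 10 Prss16 UMIs (Prss16 cells), 11 with at least 40 Ccl21a UMIs (Ccl21a cells), 31 with any Aire UMI (Aire cells) and 4 remaining cells. The Aire, Ccl21a, Ptprc and Trpm5 cells were present in all 3 libraries. Pth cells were found in the Cd11cYFP libraries (2 and 6 cells) and not among the 20 cells of MAFIA replicate 2, and Prss16 cells were absent from the 28 of Cd11cYFP replicate 2. With 3 to 8 cells in such a group, the counts are too small to compare libraries.

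The thymic epithelial name was checked against 11 epithelial markers that the choice of cells did not use, namely Ccl21a, Krt18, Krt5, Krt14, Cdh1, Foxn1, Aire, Psmb11, Prss16, Cldn3 and Cldn4. At least 3 of them were detected in 54 of the 70 cells, with a median of 5. Of the 52 cells that were neither Pth nor Ptprc cells, 48 passed this count. Only 2 of the 8 Pth cells and 4 of the 10 Ptprc cells did. The name therefore holds for the larger share of the cells, and those 18 cells go against it in part. The count was taken in the 70 cells only, and Aire, Ccl21a and Prss16 also set the limits of groups. An Aire cell of Cd11cYFP replicate 2 held 2 Aire UMIs but none of Krt18, Krt17, Foxn1, Fezf2 or Csn2. The values of the Pth and Ptprc cells are given separately.

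**Figure D2:**
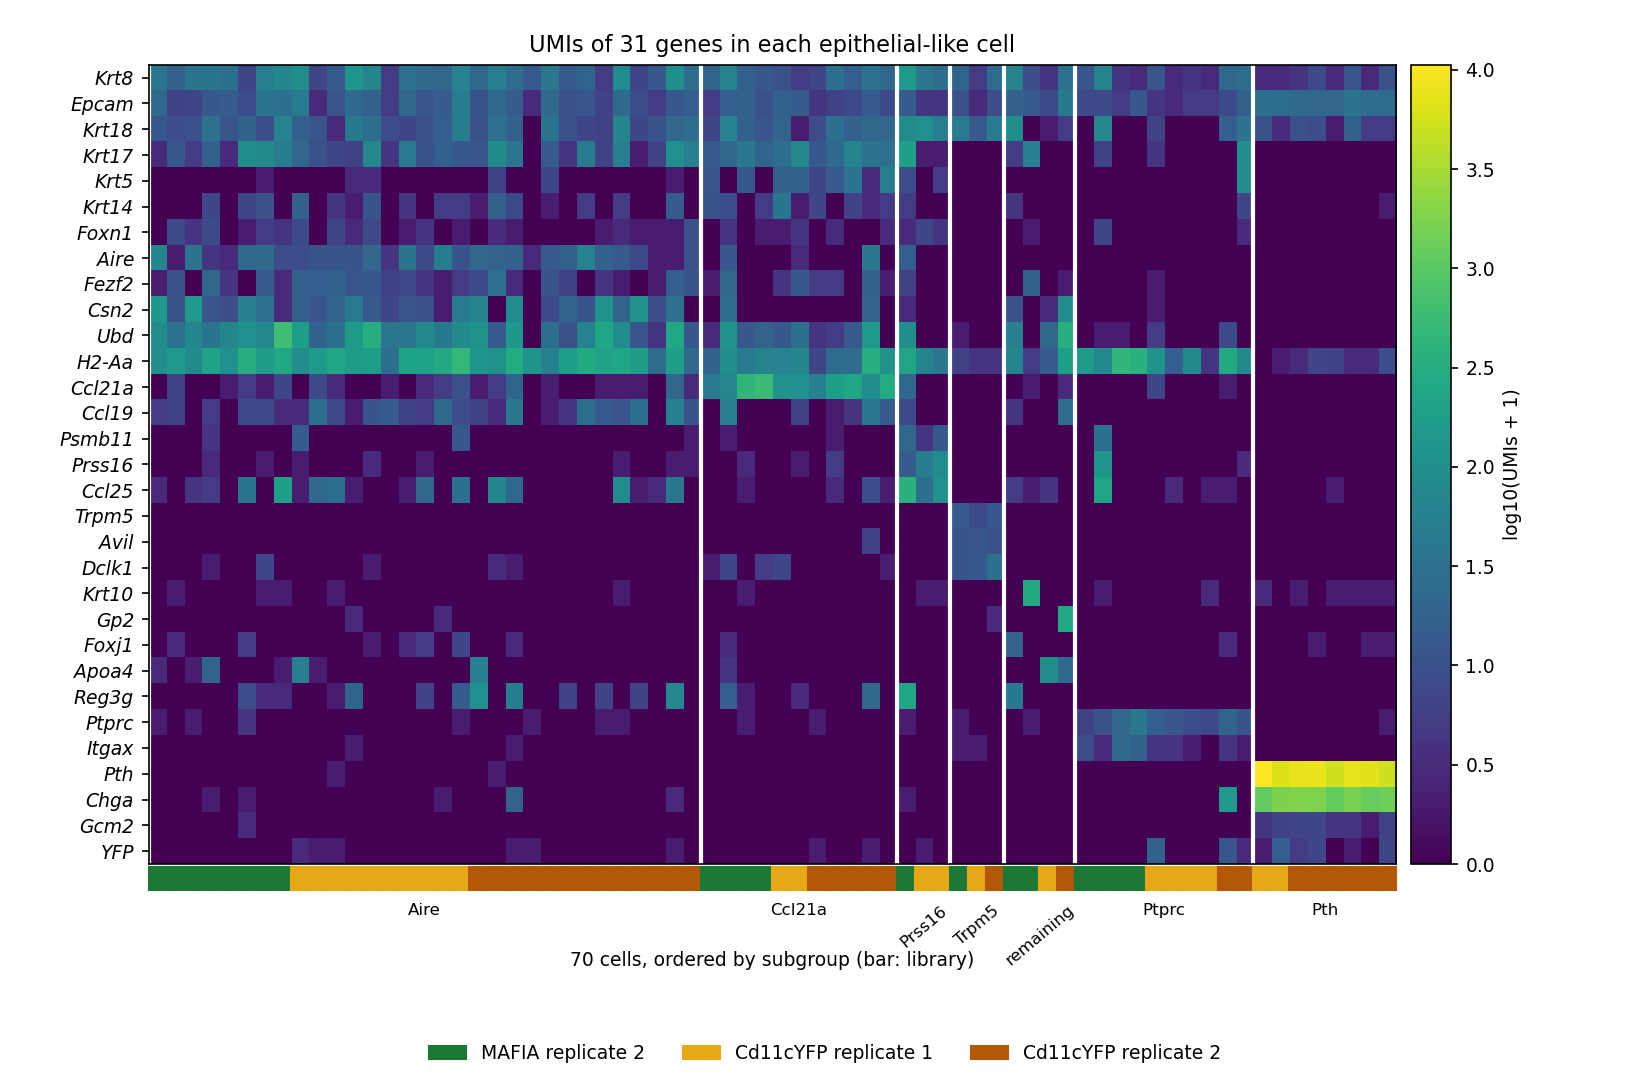
UMIs of 31 genes (vertical axis; colour, log10 of UMIs plus 1) in each of the 70 cells (horizontal axis), ordered by group, with the library of each cell in the bar below. Krt18 spans most groups, while Trpm5, Ptprc and Pth are each highest in their own block of cells, and the highest Prss16 value (128 UMIs) lies in a Ptprc cell; Pth reaches 10601 UMIs in a cell.

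Epithelial structural genes were shared most widely. Krt18, the partner filament of Krt8, was detected in 62 of the 70 cells. Its summed level was 1249 counts per 1000000 UMIs (CPM) in MAFIA replicate 2, 984 in Cd11cYFP replicate 1 and 849 in Cd11cYFP replicate 2, against 5.39, 4.76 and 4.41 in all other filtered cells of those libraries, a mean log2 ratio of 6.69 ± 0.21 (SD, n = 3). Ratios here and below were taken after adding 5 CPM to both levels, which understates the difference of low genes. Krt17, a keratin of basal and stressed epithelia, was detected in 49 cells at 1380, 756 and 1193 CPM, with a log2 ratio of 7.18 ± 0.29. Dsp, which anchors keratin to desmosomes, reached 314, 148 and 423 CPM against 0.30 to 0.73 CPM elsewhere, with a log2 ratio of 5.66. The epithelial levels lay above those of the other cells in every library. Epcam itself, a gene of the rule, was less restricted, at 579, 782 and 747 CPM against 55.8, 49.2 and 67.2 CPM.

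Of 9290 genes with a mean of at least 10 CPM over the 6 sums, 487 were at least 4-fold higher in the epithelial-like cells in each of the 3 libraries (5.24%) and 98 were at least 4-fold lower in each (1.05%). Because the cells were picked by genes of the same cells, nothing is read from those shares, and the counts of gene lists are set beside them as description. With edgeR's TMM factors the split was 365 higher and 194 lower, with the median of all tested genes moving from 0.05 to −0.45 on the log2 scale, and DESeq2's size factors gave 413 and 141 (median −0.20). Of the epithelial junction and surface list 13 of 18 tested genes were called higher and 0 lower, among them Cldn7 (log2 ratio 4.79), Cldn4 (3.48) and Cldn3 (3.27), claudins of tight junctions. Krt8 and Epcam stand in that list by the rule. Of the basal keratin and hemidesmosome list 7 of 9 were higher, including Krt14 (4.75), Itgb4 (3.49) and Col17a1 (3.17), which attach basal cells to their matrix. Of the tested genes of that list, Krt5, the partner of Krt14, differed most between libraries, at 72.4, 100.2 and 383 CPM in 18 cells (4.60 ± 1.22). In Cd11cYFP replicate 2, 97 Krt5 UMIs lay in 1 cell, which also held 10 UMIs of the leukocyte gene Ptprc.

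The transcription factors of the thymic epithelial lineage were called higher in 8 of 9 cases. Foxn1 was detected in 33 cells, at 86.0, 100.2 and 43.0 CPM against 0.12 to 0.18 CPM in the other cells, a log2 ratio of 3.90. Those 33 cells held 59.0% of all Foxn1 UMIs of the 3 libraries, although the 70 cells made up 0.297% of the filtered cells. Pax9 and Pax1, paired-box factors of the pharyngeal pouch from which the thymus forms, had log2 ratios of 3.77 and 3.63. The 8 Pth cells held 34 Pax9 UMIs, the 31 Aire cells 30 and the 11 Ccl21a cells 19, so Pax9 was not limited to the thymic groups. Isl1 (2.60), a LIM-homeodomain factor, was also called higher. For each of these 4 factors the lowest library of the epithelial-like cells lay above the highest of the other cells.

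Among genes called higher, the 20 with the largest ratios mixed structural, secreted and tissue-restricted products. Ubd, a ubiquitin-like modifier, led with 3154, 2580 and 2615 CPM against 11.9, 3.60 and 4.74 CPM, a log2 ratio of 7.95 ± 0.36, and was detected in 49 cells. Csn2, the milk protein β-casein and a known target of AIRE, reached 989, 448 and 1041 CPM (7.04 ± 0.56) and 75.3% of its UMIs fell in the 70 cells. Reg3g, an antimicrobial lectin of the gut (5.88 ± 1.38), and the chemokines Ccl25 (5.73 ± 1.01) and Ccl21a (7.34 ± 0.94), which attract thymocytes and their precursors, varied most between libraries in this set. Calca and Calcb, calcitonin and its related peptides, and Sprr1a, a protein of cornified skin, were in the same 20, as were Wfdc18, Fcgbp, S100a14, S100a16, Tbata, Crip3, Plb1, Alox12e and Fabp4. The set was completed by Krt8, Krt17 and Krt18. Pth (7.30) and Chga (6.88) had mean ratios in this range but were not 4-fold higher in MAFIA replicate 2, and so were not called. Only 4 genes had UMIs in at least 5 of the 70 cells and in none of the other filtered cells of the 3 libraries, namely Gm45461 in 8 cells and Fam81b, Frem2 and A330048O09Rik in 5 each.

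**Figure D3:**
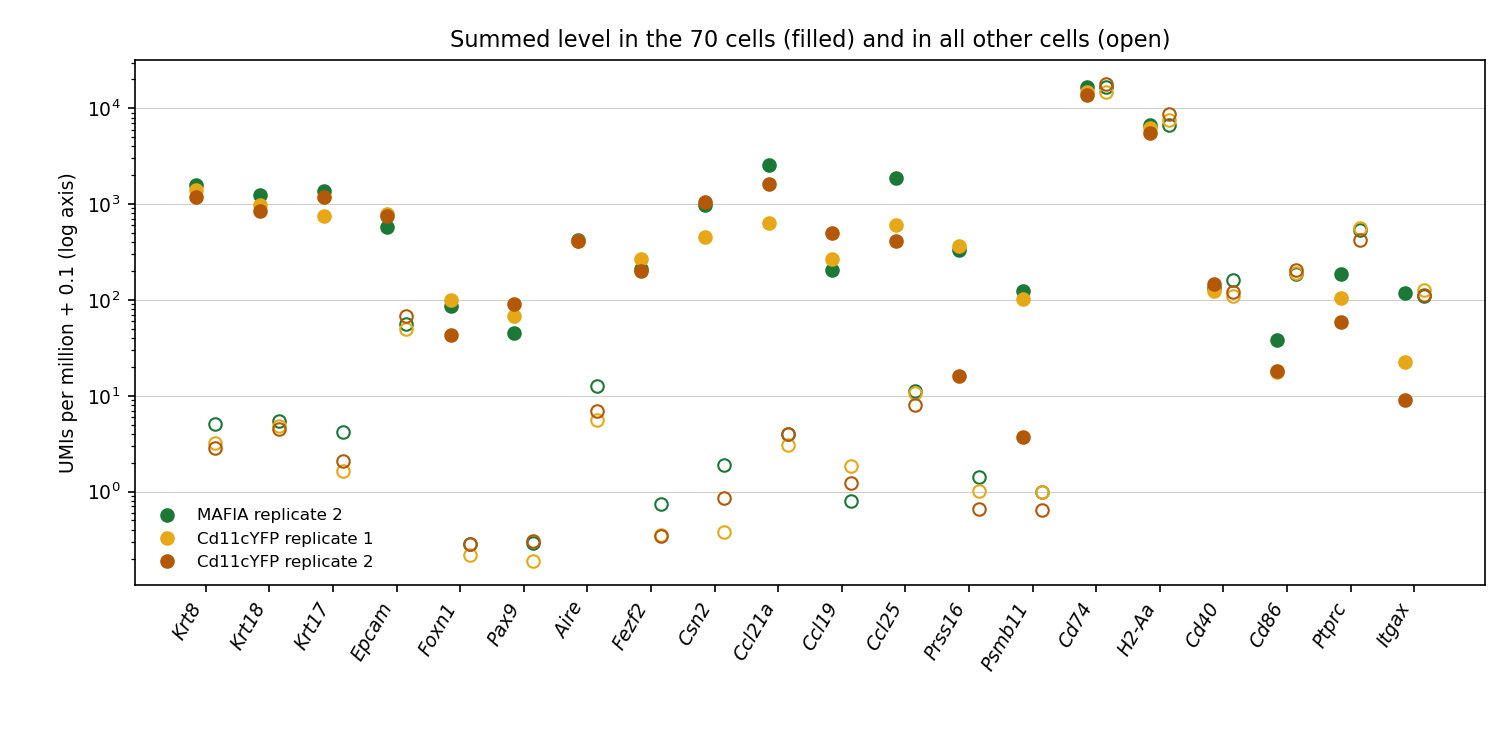
Summed CPM (vertical log axis, 0.1 added) of 20 genes in the epithelial-like cells (filled) and in all other filtered cells (open) of each library (colour). Keratins, Foxn1, Aire, Fezf2 and chemokines lie above the other cells in all 3 libraries, Cd74 (13709 to 16732 against 14868 to 17962 CPM) and H2-Aa (5500 to 6610 against 6707 to 8686 CPM) lie close to them, H2-Aa lower in each library, and Psmb11 drops to 3.58 CPM in Cd11cYFP replicate 2.

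Aire cells were the largest group, with 8 cells in MAFIA replicate 2, 10 in Cd11cYFP replicate 1 and 13 in Cd11cYFP replicate 2. AIRE (chr10:77865321-77879444, minus strand, GRCm39) is the transcriptional regulator that opens tissue-restricted genes in the medulla. Aire UMIs per cell were 1, 2, 3, 8, 21, 24, 34 and 66 in MAFIA replicate 2. They were 3, 7, 8, 10, 10, 10, 10, 20, 34 and 49 in Cd11cYFP replicate 1, and 1, 1, 2, 7, 9, 13, 13, 16, 17, 17, 18, 20 and 59 in Cd11cYFP replicate 2. Each library held cells with at most 3 and cells with more than 30 Aire UMIs, and the 3 ranges overlap. Pooled over the group, Aire stood at 834 CPM and Krt5 at 27.6 CPM. Leading genes of these cells against the other epithelial-like cells included Calcb, Sncg, Thrsp, Sirt1, Pla1a, Il23a, Nos2 and Pglyrp2, which are known from many tissues outside the thymus.

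Summed over all 70 cells, Aire was level between the libraries, at 421, 408 and 416 CPM, against 12.6, 5.47 and 6.80 CPM in the other cells (log2 ratio 5.02 ± 0.37). The 70 cells held 14.2% of Aire UMIs, a smaller share than for Fezf2 (66.2%), and 162 other cells had at least 5 Aire UMIs. B-marker cells stood at 28.3 ± 19.2 CPM of Aire and mature dendritic cells at 20.2 ± 7.55 CPM, macrophage-marker cells at 2.78 CPM. Fezf2, a second regulator of tissue-restricted genes, was detected in 38 of the 70 cells and reached 210, 266 and 199 CPM against 0.25 to 0.65 CPM (5.41). Of the 35 cells with an Aire UMI 30 had Fezf2, and of the 35 without it 8 did. Csn2 was detected in 31 of the 35 with Aire and in 4 of the 35 without. Hdc, which makes histamine, was found in 30 against 2, and Ubd in 34 against 15. Of the 35 cells without Aire, 18 are the Pth and Ptprc cells. In the other 17, Fezf2 was detected in 7, Csn2 in 3, Hdc in 2 and Ubd in 11. These pairs describe cells of 3 libraries whose depths differ, and detection moves with depth.

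Of the list of Aire-related medullary genes 4 of 11 were called higher (Aire, Fezf2, Hdc with a log2 ratio of 5.07, and Utf1 with 3.69), and Cd86 was called lower. The costimulatory ligand Cd86 stood at 38.5, 17.5 and 17.9 CPM against 185, 190 and 205 CPM, a log2 ratio of −2.81, and its partner Cd80 had a ratio of 0.57. Tnfrsf11a, the receptor RANK through which thymocytes promote medullary maturation, was detected in 42 of the 70 cells, 30 with Aire and 12 without (10 of 17 without Aire once Pth and Ptprc cells are left out), and its log2 ratio was 1.50. Tnfrsf11b, the decoy receptor for the same ligand, was called higher (3.36). The other 8 tested ligands and receptors of the medulla were not called, among them Cd40 (0.06), Relb (−0.35) and Nfkb2 (0.68), which the dendritic cells and B cells of the sort also transcribe.

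Ccl21a cells formed the second group by size, 11 in all. CCL21 (chr4:42772859-42773995, minus strand, GRCm39) draws positively selected thymocytes into the medulla. The cells held 46, 73, 425 and 547 Ccl21a UMIs in MAFIA replicate 2, 107 and 114 in Cd11cYFP replicate 1, and 56, 85, 189, 237 and 293 in Cd11cYFP replicate 2. Pooled, that is 13099 CPM against 99.7 CPM in the other 59 epithelial-like cells, the latter without any cell of 40 UMIs or more by the choice of limit. Krt5 was detected in 9 of the 11 and in 9 of the 59 others, and Krt17 in 11 of 11. Aire was detected in 3 of the 11. Genes of matrix and contractile fibres led the group, namely Mgp, Tagln, Col6a2, Tpm2 and Cald1. Ccl21b and Ccl21d, near-identical copies of Ccl21a, were listed at 0 UMIs in every cell of the 3 libraries, so the Ccl21a count may include reads of the copies.

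Across all 70 cells, 6 of 9 tested genes of the Ccl21a medullary list were called higher. Ccl19, which binds the same receptor as CCL21, reached 206, 266 and 499.7 CPM against 0.69 to 1.75 CPM (5.63). Of the stromal cytokine and chemokine list 5 of 13 were called higher and 0 lower, and without Pth and Ptprc cells 6 of 14 higher and 1 lower. Il7, the growth factor of early thymocytes, stood at 67.9, 55.1 and 57.3 CPM against 0.73 to 1.07 CPM (3.47), and was nearly level between libraries. Wnt4, which acts on thymic epithelium itself, had a ratio of 3.41. Kitl, which supports thymic progenitors, was below the filter on low levels, at 24.9, 10.0 and 8.96 CPM (1.45). Bmp4 had 0 UMIs in the 70 cells.

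The levels of the cortical genes Prss16 and Psmb11 rested on few cells. Prss16, the thymus-specific serine protease, passed 10 UMIs in 4 of the 70 cells, of which 3 are the Prss16 cells and 1 is a Ptprc cell. The 3 Prss16 cells held 14 (MAFIA replicate 2), 49 and 91 (both Cd11cYFP replicate 1) Prss16 UMIs. Psmb11, the cortical proteasome subunit (chr14:54858890-54867013, plus strand, GRCm39), was present at 21, 3 and 12 UMIs in the same cells, Ccl25 at 376, 29 and 105, and Foxn1 at 2, 6 and 3. The MAFIA cell also had 15 Aire UMIs and 230 Reg3g UMIs, so it carried both cortical and medullary transcripts. So did others: Aire cells of Cd11cYFP replicate 1 held 14 Psmb11 with 8 Aire UMIs and 12 Psmb11 with 10 Aire UMIs. Against the other epithelial-like cells the group stood at 10083 CPM of Ccl25 against 593, 7394 CPM of the cathepsin gene Ctsl against 506, and 593 CPM of the endocytic receptor gene Ly75 against 40.8.

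In the whole set of 70 cells, Psmb11 stood at 124, 103 and 3.58 CPM, and Prss16 at 333, 363 and 16.1 CPM. Both were low in Cd11cYFP replicate 2, where no Prss16 cell was found. In MAFIA replicate 2 a Ptprc cell held more of both (128 Prss16 and 30 Psmb11 UMIs) than the Prss16 cell did (14 and 21). Of the cortical list 3 of 8 tested genes were called higher, namely Ccl25, Il7 and Tbata, and none lower. Without Pth and Ptprc cells 5 of 9 were called higher. Ccl25, Il7 and Tbata were not limited to the Prss16 cells. Tbata had 740 UMIs in Aire cells and 183 in Prss16 cells, and Ccl25 551 and 510. Il7 had 35 UMIs in Ccl21a cells, 25 in Aire cells and 8 in Prss16 cells. Psmb11 was detected in 10 of the 70 cells and Prss16 in 16, with 8 cells holding both. FOXN1 is known to act on Psmb11 through sites with the core GACGC, and the start of Psmb11 is shown because Psmb11 and Foxn1 were detected together in the Prss16 cells. The RefSeq window of 300 bases (GRCm38.p6, chr14:54625060-54625359, plus strand, 250 bases before to 50 after the start) holds it at 2 positions on the opposite strand, where it reads GCGTC and is set in capitals:
Psmb11: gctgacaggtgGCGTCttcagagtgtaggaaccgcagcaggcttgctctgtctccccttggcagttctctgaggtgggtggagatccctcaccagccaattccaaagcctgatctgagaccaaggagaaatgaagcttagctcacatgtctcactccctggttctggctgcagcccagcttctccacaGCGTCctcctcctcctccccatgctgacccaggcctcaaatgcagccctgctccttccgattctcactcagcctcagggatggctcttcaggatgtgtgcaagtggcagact
On either strand GACGC occurs in 27.2% of 32851 RefSeq promoter windows of the same length, so its presence describes the window and is no evidence of binding. The corresponding windows of Aire, Fezf2 and Cxcl12 held it at 1 position each, 1 of 2 windows of Ccl25 at 2 positions, and those of Foxn1, Ccl21a and Pth at none.

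The 3 Trpm5 cells came 1 from each library. TRPM5 is the cation channel of taste and tuft cells, chemosensory epithelial cells that also occur in the medulla. In the order MAFIA replicate 2, Cd11cYFP replicate 1 and Cd11cYFP replicate 2, Trpm5 stood at 14, 7 and 12 UMIs, Avil, an actin-binding protein of tuft cells, at 10, 11 and 9, and Dclk1, a tuft cell kinase, at 10, 12 and 30. Pou2f3, the master regulator of tuft cells, was present at 3, 1 and 2 UMIs. Outside them no filtered cell of the 3 libraries reached 5 Trpm5 UMIs. The cells were shallow, with a median of 8089 UMIs, and held no Krt17, Krt5, Foxn1, Aire or Ccl19 UMI. H2-Aa, a chain of MHC class II, was at 5, 3 and 3 UMIs, against a median of 169 UMIs in the deeper Aire cells. Of the tuft list 4 of 6 tested genes were called higher over all 70 cells, and 4 of 7 higher and 1 lower without Pth and Ptprc cells.

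Each of the 4 remaining cells had its own leading transcripts. A cell of MAFIA replicate 2 held 18 UMIs of Foxj1, the regulator of motile cilia, with 39 of the dynein light chain Dynlrb2 and 11 of Tekt1, a protein of ciliary microtubules. Another cell of that library held 281 Krt10 and 149 Krt1 UMIs, keratins of the differentiating epidermis, and 137 of Saa1. The cell of Cd11cYFP replicate 1 held 98 UMIs of Apoa4, an apolipoprotein of the gut. The cell of Cd11cYFP replicate 2 held 255 UMIs of Gp2, a receptor of intestinal microfold cells, 165 of Ccl20, the chemokine they secrete, and 59 of Spib, the transcription factor they depend on. These are single cells, and nothing about a library can be read from them.

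Tissue-restricted transcripts divided into ones carried by single cells and ones spread over many. The Krt10 UMIs of the single cell above were 94% of the 299 in all 70 cells, and its Krt1 UMIs 149 of 153. Gp2 had 255 of 261 UMIs in 1 cell, the peptide hormone gene Sst 130 of 131, and Kap, a kidney androgen-regulated protein, 63 of 63. By contrast Csn2 was spread over 35 cells and its highest cell held 144 of 1197 UMIs (12%). Wfdc2, a secreted airway and genital tract protein, had 247 UMIs in 32 cells, and Reg3g 605 in 19. Of the Wfdc2 UMIs, 105 lay in 6 of the 8 Pth cells and 105 in 16 of the 31 Aire cells. Of the gut, liver and secretory list 6 of 8 tested genes were called higher (Apoa4, Saa1, Saa3, Muc13, Wfdc2 and Reg3g), and of the tissue-restricted list 2 of 8, Csn2 and Tff3. Without Pth and Ptprc cells the tissue-restricted count was 4 of 9. None of the 6 tested keratinocyte genes was called, with a median log2 ratio of 4.64 in MAFIA replicate 2 against 0.83 and 1.40 in the others, nor any of the 7 microfold genes, with 2.42 in Cd11cYFP replicate 2 against 0.63 and 0.41. For both lists the single cells above held most of the UMIs of Krt10, Krt1 and Gp2. None of the 5 tested neuroendocrine, ciliated and muscle genes was called. S100a8, a calcium-binding protein of neutrophils and stressed epithelium, was the 1 gene of 6 called higher in the list of erythrocyte, neutrophil and parathyroid genes, with 634 UMIs in 14 cells. Csn1s1, Alb, Afp, Fgb and Rbp3, products of mammary gland, liver and retina, had 0 UMIs in the 70 cells.

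Transcripts of MHC class II presentation stood near the level of the other sorted cells. Cd74, the invariant chain of MHC class II, stood at 16732, 14877 and 13709 CPM against 16620, 14868 and 17962 CPM, a log2 ratio of −0.13, and H2-Aa at 6610, 6195 and 5500 CPM against 6707, 7565 and 8686 CPM (−0.32). None of the 12 genes of the MHC class II list was called, nor any of the 16 of the class I and proteasome list. Within the 70 cells the level differed, with H2-Aa at 8717 CPM in the Aire cells and 5114 CPM in the Ccl21a cells, and from 0 to 8 UMIs per cell in the Pth cells. Ctss, the protease that trims the invariant chain in dendritic cells, had a log2 ratio of −1.84.

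The 10 Ptprc cells held leukocyte transcripts beside Krt8 and Epcam. Ptprc encodes CD45, the surface phosphatase of leukocytes, and was present at 5 to 40 UMIs per cell (median 10.5). Another 13 of the 70 cells had Ptprc, at no more than 3 UMIs. In 6 of the 10 there was no UMI of Krt18, Foxn1 or Krt17, and Krt8 reached at most 11. Of the 11 further epithelial markers, 2 of the 10 cells had none. The other 4 had Krt18. One, from MAFIA replicate 2, held 30 Psmb11, 128 Prss16 and 224 Ccl25 UMIs together with 50 of Siglech, a surface lectin of plasmacytoid dendritic cells. Leading genes of the group were Ms4a6c, Clec7a, Tyrobp, Ms4a4c and Ptprc itself, all leukocyte genes. Whether such cells are pairs of cells in 1 droplet was not tested beyond the simulated doublets, which marked none of them. The simulated pairs were random and seldom held an epithelial-like cell, so the score cannot decide this.

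Leukocyte transcripts of the whole set lay in Ptprc cells, and those of some genes also in Aire cells. The pan-leukocyte list stood at 6470 CPM in Ptprc cells and 3250 CPM in the more numerous Aire cells, and the dendritic cell list at 1602 and 745 CPM. Single leukocyte genes differed. In Aire cells Cd52 stood at 1751 CPM and Laptm5 at 611 CPM, against 2651 and 679 CPM in Ptprc cells. Ptprc, Coro1a and Itgax stood at only 14.6, 102 and 3.25 CPM in Aire cells, against 574, 683 and 249 CPM. The macrophage and monocyte list stood at 2165 CPM in Ptprc cells, 1627 CPM in Pth cells and 984 CPM in Aire cells. Lyz2 stood at 1470, 25.6 and 790 CPM in the same order. In Pth cells C1qa, C1qb and C1qc of that list stood at 20.5, 15.4 and 10.2 CPM, and Csf1r had 0 UMIs. With 4 of the 11 list genes at 0 there, most of the Pth cell sum lay in other genes of the list. In Pth cells the pan-leukocyte list was at 92.1 CPM. Without Pth and Ptprc cells, 8 of 11 macrophage and monocyte genes were called lower in place of 4, 8 of 12 dendritic cell genes in place of 4, and 3 of 10 pan-leukocyte genes in place of 0. Summed over the list, macrophage and monocyte genes stood at 849 to 1559 CPM in the 70 cells and 3886 to 9050 CPM in the others, pan-leukocyte genes at 2053 to 4022 against 6687 to 8215 CPM, and dendritic cell genes at 449.6 to 955 against 2646 to 3016 CPM, with Xcr1, a rule gene, at 0. The part of these transcripts in the other results was not tested. B cell genes were called lower in 5 of 8 cases with all cells, thymocyte genes in 1 of 12 with Rag1 at 0 (4 of 12 without Pth and Ptprc cells), and interferon genes in 0 of 10. No fibroblast or endothelial gene of 5 tested was called in either direction, with Col1a2, Lum and Tie1 at 0 UMIs. Itgax, whose promoter drives the Cd11cYFP reporter, stood at 118, 22.5 and 8.96 CPM against 110.2, 128 and 113 CPM. It was thus as high as in the other cells in MAFIA replicate 2 and lower in both Cd11cYFP libraries, with 62 of its 66 UMIs in Ptprc cells.

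The 10 lowest genes among those called lower were rule genes or genes of B cells, dividing cells and dendritic cells. C1qa (−5.50), C1qb and C1qc, and Xcr1 (−5.30), were set low by the choice of cells. Igkc (−4.55), Ighg2b (−4.41) and Igha (−4.07) encode immunoglobulin chains, Il12b (−4.39) a cytokine subunit of dendritic cells, and Pclaf (−4.66) and H1f5 (−4.42) a replication clamp factor and a histone. Mki67, expressed in cycling cells, stood at 47.5, 5.01 and 32.2 CPM against 139, 100.4 and 129.7 CPM (−2.23), but was not called. Birc5 was the 1 gene of the 10 proliferation genes called lower (−2.86), and without Pth and Ptprc cells none was. Of the dissociation and stress genes 1 of 10 was called higher, the small heat shock gene Hspb1 (5.43). Fos stood at 2.26, 524 and 1462 CPM in the epithelial-like cells and at 36.3, 1079 and 1398 CPM in the others, lowest in MAFIA replicate 2 in both.

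**Figure D4:**
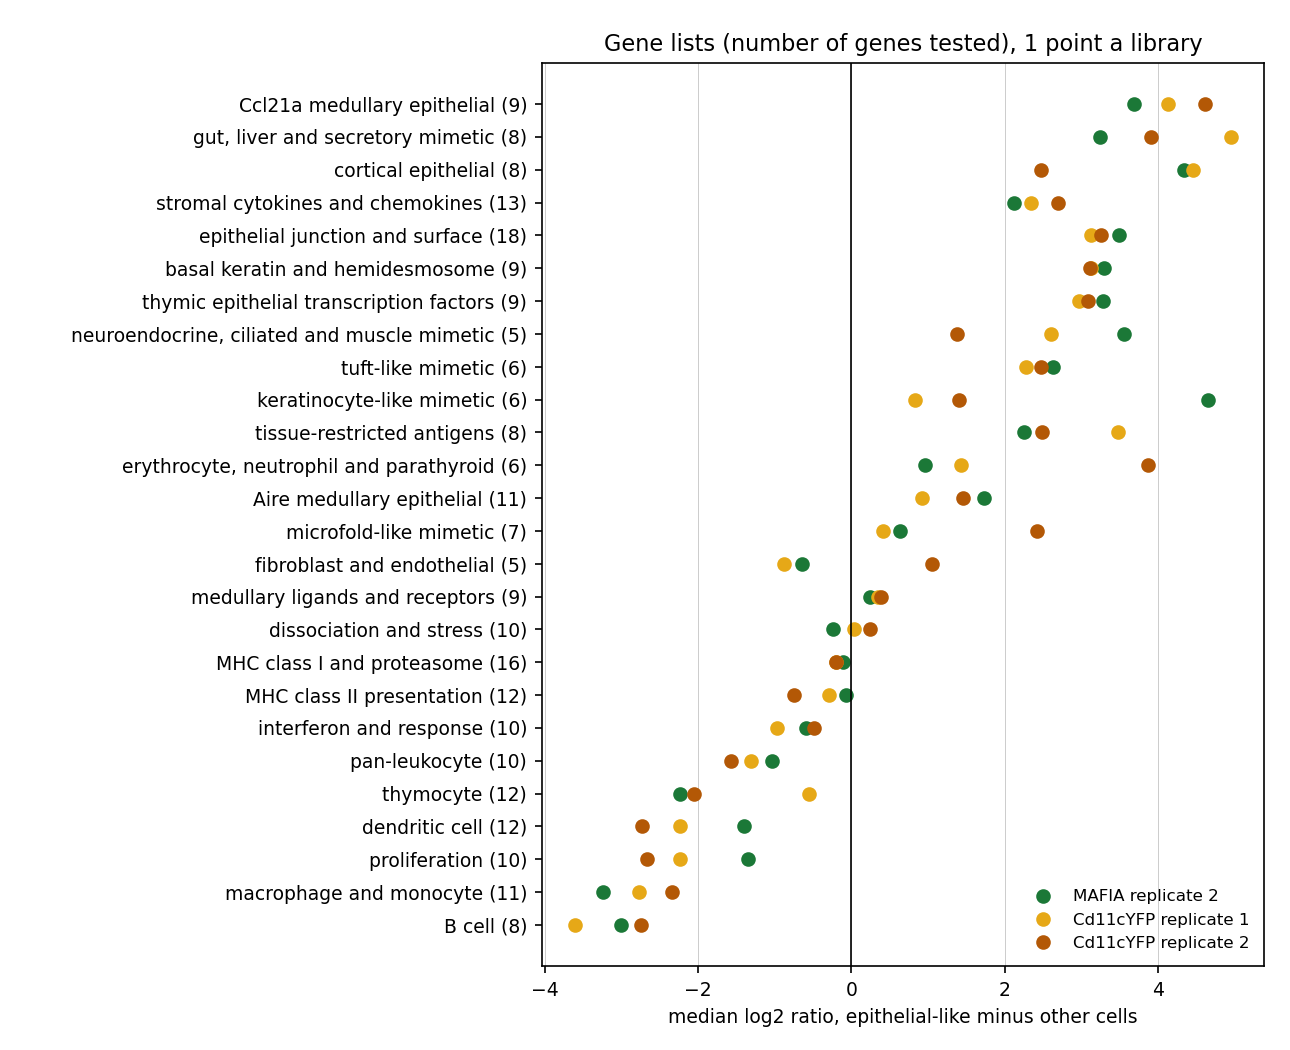
Median log2 ratio of the epithelial-like cells to all other filtered cells (horizontal axis) for 26 gene lists with the number of genes tested in parentheses (vertical axis), 1 point per library. Epithelial lists lie right of 0 in all 3 libraries, MHC lists close to 0 and macrophage, dendritic, proliferation and B cell lists to the left; the keratinocyte list separates MAFIA replicate 2 (4.64) from the others.

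The 8 Pth cells carried transcripts of another endocrine organ. Pth (chr7:112984783-112987779, minus strand, GRCm39) encodes parathyroid hormone, and parathyroid and thymus arise from the same pharyngeal pouch. The cells held 10601 and 6502 Pth UMIs in Cd11cYFP replicate 1, and 7916, 8002, 5475, 7667, 6946 and 5336 in Cd11cYFP replicate 2. Pooled, that is 299071 CPM. Chga, a protein of hormone granules, was present at 1163 to 1819 UMIs per cell, Gcm2, the transcription factor that specifies the parathyroid, at 1 to 6 UMIs in 8 of 8, and Casr, the calcium-sensing receptor, at 0 to 3. Foxn1, Aire, Fezf2, Krt17, Krt5, Ubd, Psmb11 and Ccl19 had 0 UMIs in all 8. Epcam was high (20 to 34 UMIs), while Krt8 was near the minimum (2 to 11, median 2.5). By these values they carry parathyroid genes and lack these thymic epithelial ones.

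Pth cells moved several values of the whole set. Pth itself was at 0, 42844 and 74048 CPM in the 3 libraries. Among the other 62 cells 2 had a Pth UMI, with 1 each. In addition 3 cells outside the selection held 5255 to 6581 Pth UMIs with 17 to 19 Epcam UMIs and at most 1 Krt8 UMI, so the Krt8 minimum divided this kind of cell. At 5000 UMIs the Pth cells had a median of 1524 genes in Cd11cYFP replicate 1 and 1600.5 in Cd11cYFP replicate 2, and the 52 cells without Pth and Ptprc cells 2102 ± 56.7. Without both groups 636 genes were called higher and 271 lower.

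The sort was for fluorescent protein, so the reporter transcript was counted in the same cells. After reduction to 5000 UMIs a YFP UMI was found in 5 of 22 epithelial-like cells of Cd11cYFP replicate 1 (22.7%, exact 95% interval 7.82 to 45.4) and 6 of 28 of replicate 2 (21.4%, 8.30 to 41.0), and in 0 of 20 in MAFIA replicate 2, which has no such transgene. The other filtered cells had shares of 60.9% and 53.2%, and macrophage-marker cells 88.9% and 86.5%. Thymocyte-marker cells had 12.7% (9.92 to 15.9) and 11% (7.77 to 15.1), and fibroblast-marker cells 10.6% and 7.84%. Thymocyte-marker cells also held Itgax, at 35.4 ± 10.7 CPM. Mature dendritic cells stood at 38.1 ± 5.70 CPM of Itgax and macrophage-marker cells at 182 ± 26.4 CPM. Whether thymocyte-marker cells carry the reporter themselves was not tested, so their share is not a shown background. At 5000 UMIs the epithelial-like interval contains the thymocyte share in both libraries, so with 22 and 28 cells the shares could not be told apart at this depth. The share moved with the depth chosen, to 9.09% (2 of 22) and 17.9% (5 of 28) at 3000 UMIs and to 22.7% (5 of 22) and 12% (3 of 25) at 8000 UMIs. The thymocyte-marker cells stood at 8.53% and 10.7% at 3000 UMIs, and at 18.5% and 18.8% at 8000 UMIs. Median depths before reduction were 18364.5 and 20488.5 UMIs in the epithelial-like cells and 8795.5 and 10445.5 UMIs in the thymocyte-marker cells.

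Without Pth and Ptprc cells the pooled share was 6 of 36 (16.7%, 6.37 to 32.8). Without reduction the share over all the epithelial-like cells was 31.8% (13.9 to 54.9) and 39.3% (21.5 to 59.4) in the 2 libraries, and 25% in each without Pth and Ptprc cells. The shallower thymocyte-marker cells stood at 17.7% and 19.2% without reduction. Only the interval of all epithelial-like cells in Cd11cYFP replicate 2 lay above that share, and the depths of these cells differ. Of the 8 Pth cells 6 had YFP at full depth, with 0 to 15 UMIs per cell. Summed YFP was 95.2 and 62.7 CPM in the epithelial-like cells against 1026 and 417 CPM in the others, lower in both libraries. Of the 73 YFP UMIs of the 70 cells 33 lay in Pth cells and 30 in Ptprc cells. EGFP gave 1 UMI in all 70 cells. Its level in the other cells is not given here, so no comparison is made for this reporter.

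**Figure D5:**
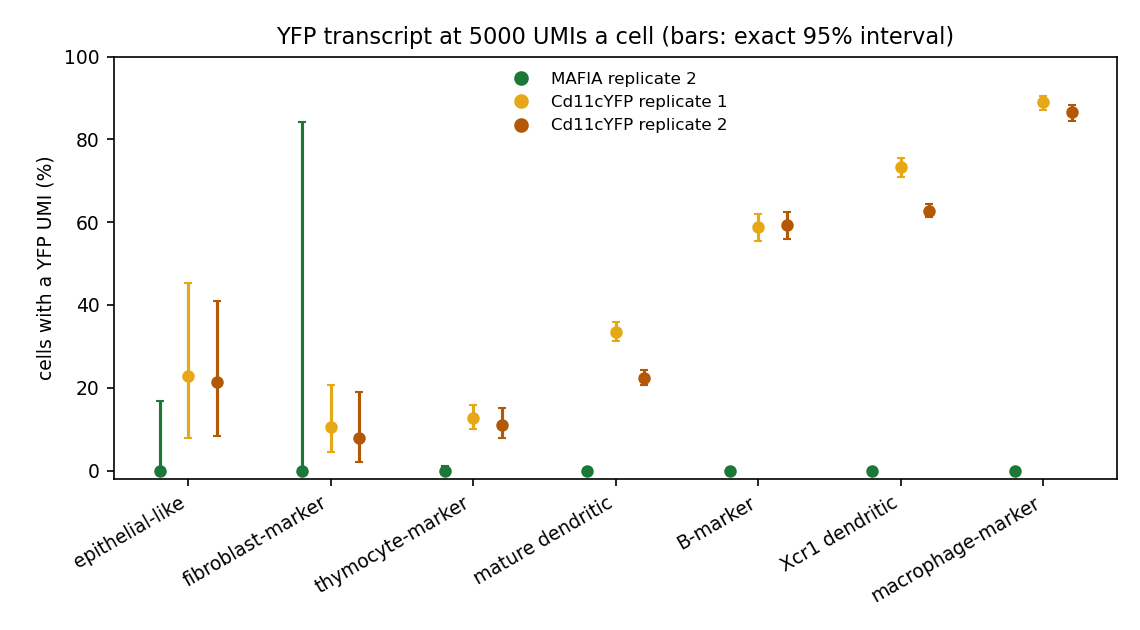
Share of cells with at least 1 YFP UMI after reduction to 5000 UMIs (vertical axis, percent) in the epithelial-like cells and 6 other marker-defined groups (horizontal axis), by library (colour), with exact 95% binomial intervals. Epithelial-like cells lie at 22.7% and 21.4% in the Cd11cYFP libraries, with intervals that reach the thymocyte-marker cells, and macrophage-marker cells at 88.9% and 86.5%.

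Cells near the limits of the rule differed from those well inside it. Krt8 ranged from 2 to 143 UMIs (median 19) and Epcam from 2 to 48 (median 12), with 7 cells at exactly 2 Krt8 UMIs and 4 at exactly 2 Epcam UMIs, and the highest C1q sum was 5. Lowering both minimums to 1 UMI added 136 cells, of which 128 had a single Krt8 UMI. Of the added cells 99 (72.8%) had at least 5 Ptprc UMIs, compared with 10 (14.3%) of the 70, and Foxn1 was detected in 3, Krt18 in 28 and Krt17 in 16 of the 136, against 33, 62 and 49 of the 70. Most cells just outside the limit thus held the leukocyte gene Ptprc, and few held Krt17 or Foxn1. Another 8 cells met the gene rule but not the limits on genes or mitochondrial share.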

How the data were processed

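Thymus cells sorted by reporter were measured in 4 libraries with 10x Genomics 3′ chemistry. The values the authors deposited are unnormalized counts, 1 for each UMI assigned to a gene in a barcode. The submitters' processing notes name bcl2fastq 2.20, STAR 2.7.9a, Cell Ranger and GRCm39, while the study's methods give another Cell Ranger reference, mm10. For the Cd11cYFP libraries the study states more barcodes than the deposited matrices hold. The study's filters were used (1000 to 7000 genes, at most 10% mitochondrial UMIs).

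The cells and gene lists were chosen with earlier results of these data known. Counts of the selected cells were summed per library, scaled to CPM and compared with the sum of all other filtered cells of that library. A gene was called at 4-fold or more on log2(CPM + 5) in each of 3 libraries, among genes with a mean of at least 10 CPM over 6 sums. No test was made, because the cells were chosen on the same counts, and cells are not replicates. MAFIA replicate 1 had no member and entered no ratio. Named genes were those of the 27 lists (311 entries, 2 unmatched), the 20 highest with at least 50 UMIs from at least 10 cells, the 10 lowest, and genes found in at least 5 of the cells and no other. A few listed genes are not reported here. Genes leading a group of cells, and genes carried by 1 cell, were named after their values were seen. Comparison groups, assigned in order, were fibroblast-marker (Dcn and Col1a2 at least 2 UMIs each), macrophage-marker (C1q sum at least 30), Xcr1 dendritic (Xcr1 at least 1), mature dendritic (Ccr7 and Fscn1 at least 2), B-marker (Cd79a at least 2, Ms4a1 at least 1) and thymocyte-marker cells (Cd3 genes at least 3). Genes per cell and YFP shares were taken after random reduction to 5000 UMIs per cell. Summed counts were 399211 to 558329 UMIs per library, so 1 UMI is 1.79 to 2.50 CPM. Of 55418 gene identifiers 54749 were found in GENCODE vM39 (GRCm39), the source of gene coordinates. The step that makes calls was tested on simulated data. Python 3.11.15, numpy 2.4.6, scipy 1.17.1, pandas 2.3.3, scikit-learn 1.9.0 and matplotlib 3.10.9 were used, with R 4.3.3, edgeR 4.0.16 and DESeq2 1.42.0 for normalization factors only.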

Additional observations from a re-analysis of the deposited data

Results flagged for a closer look

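MAFIA replicate 1, which held none of the selected cells and entered no comparison, still contained epithelial transcripts. There, 29 cells had at least 1 UMI of both Krt8 and Epcam, and Ptprc was detected in 25 of them, Ccl21a in 4, Krt18 in 3, Krt17 in 3, Aire in 2 and Foxn1 in 0. Over the library Krt8 gave 439 UMIs (16.4 CPM), Krt18 422 (15.8 CPM), Krt17 359 (13.4 CPM), Ccl21a 421 (15.7 CPM) and Aire 492 (18.4 CPM), with no cell above 3 UMIs of any of these. Pth gave 67 UMIs, at most 2 in a cell. The difference from the other libraries was not tested, and the depth of this library was lower, at a median of 3979 UMIs per cell.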

How the results depend on the processing

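No paired analysis was possible because no result comes from a test. Lowering the Krt8 and Epcam minimums to 1 UMI gave 206 cells, 140 genes called higher, 20 called lower, 1865 genes per cell and a YFP share of 40.3%; Il12b (0.24) and Ccr7 (0.082) then changed sign. A pseudocount of 1 CPM gave 804 higher, and 20 CPM gave 116 higher and 28 lower. TMM factors gave 194 lower. Leaving out the Ptprc cells gave 297 lower, and leaving out Ptprc and Pth cells 271, both settings chosen after seeing the data. Genes per cell were 1437 at 3000 UMIs and 2773 at 8000 UMIs, which follows from the depth, and YFP was found in 36% of cells (18 of 50) without reduction. Leaving out 1 library at a time gave 42 to 50 cells, 603 to 662 genes higher, 120 to 201 lower and 2048.25 to 2086 genes per cell; the higher counts follow from asking 4-fold in fewer libraries, and 201 was without MAFIA replicate 2. Of the 250 named genes under 18 settings, 3769 values moved by less than 1 SD and 729 by more. Another 2 values, both of genes called in the main setting, changed sign. Sign changes of genes that were not called stand among the other values and were not counted apart. The cause of the other shifts was not tested. Depth limits the text through the member sums, where genes under about 3 UMIs per library cannot be told from 0, and through the 50 cells behind the YFP share.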
